A study of Sus scrofa with 6 samples.

Results

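The genes of G protein signaling and cAMP held 45 of the 14163 differentially methylated regions (DMRs) listed for pig backfat, in 30 of the 2686 genes with a human symbol. Methylated DNA immunoprecipitation sequencing (MeDIP-seq) enriches fragments that carry methylated cytosine with an antibody before sequencing, and a more methylated CpG site gathers more reads. A DMR belonged here when its promoter, exon, intron or 2 kb downstream annotation carried a human symbol of an adenylyl cyclase, a phosphodiesterase, an A-kinase anchoring protein, a G protein or PKA subunit, an RGS protein, a phospholipase C of the beta, delta, epsilon or gamma class, or a receptor of the named families. The families were those of adrenergic, adenosine, muscarinic, metabotropic glutamate, serotonin, dopamine, lysophospholipid, prostaglandin, bradykinin, frizzled and adhesion receptors, and the receptors named GPR with a number. Choice was by gene name only, and 2 genes that the names would take in were left out. Of the 25 name patterns 12 had no member, among them those of the G protein alpha, beta and gamma subunits, the PKA subunits, and the muscarinic, dopamine and prostaglandin receptors.

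The pigs were 3 Landrace females, a lean western breed, whose backfat is called LBF, and 3 Rongchang females, a fatty breed of China, whose backfat is called RBF. All were 210 days old, were kept in one environment and fasted before slaughter, and each library came from the backfat of 1 animal, with no allele or agent that sets the groups apart other than the breed. Breed therefore cannot be told apart from whatever else differed between the groups of animals. The values are the normalized read depth of each library, as the mean over the CpGs of a DMR, and coordinates are those of Sscrofa10.2.

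A hormone or transmitter that binds a G protein-coupled receptor lets the receptor load GTP onto a G protein, whose stimulatory class switches on adenylyl cyclase, whose inhibitory class holds it back, and whose Gq class switches on phospholipase C. Adenylyl cyclase makes cAMP, phosphodiesterases break cAMP or cGMP down, and cAMP activates protein kinase A (PKA), which anchoring proteins hold near its targets. Receptor kinases switch receptors off, and RGS proteins speed the shut-off of the G protein. In fat cells, catecholamines drive this chain towards the release of stored fat, and adenosine and prostaglandins restrain it.

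The listed regions were chosen by the authors because they differed between these same 6 pigs, and 100% of the 14163 DMRs, every member included, had every library of one breed above every library of the other. A test on them therefore describes how large a difference was against the spread among pigs. Limma on log2(depth + 1), adjusted by the Benjamini-Hochberg method over all 14163 DMRs with a threshold of 0.05, called 84.5% of them higher and 15.1% lower in LBF. For a single DMR the smallest two-sided p of an exact permutation test on 3 and 3 pigs is 0.1, and no such test was used. Library medians over all DMRs were 34.1 to 35.4 in LBF and 9.40 to 14.4 in RBF. RBF replicate 3 stood lowest, at 9.40 against 13.9 and 14.4 in the other 2 RBF libraries, and read a depth of 0 in 7 of the 45 members, where no other library did so in more than 2. Tissue identity was not checked, since the table holds DNA methylation and no transcript levels, and a DMR shows no share of a cell type. Of the lists of cell type markers, 1 of 7 adipocyte genes (PLIN1), 2 of 4 endothelial genes (KDR and VWF), 1 of 6 immune genes (CD3E), 1 of 6 muscle genes (MYH7) and 1 of 5 stromal genes (PDGFRB) held a DMR, together 7 DMRs higher and 1 lower in LBF. The part of differing cell shares in the values below was not tested.

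Most DMRs of these genes read deeper in LBF on the authors' scaling. In LBF, 39 of the 45 members were higher and 6 lower, so that 86.7% were higher, against 84.8% over all DMRs. Limma called 38 of them higher (84.4%) and 6 lower (13.3%), shares close to the background, and left 1 uncalled, the exonic DMR of AKAP11. The 6 lower DMRs lay in FZD10, GPR158, ADRBK2, RGS17, PDE10A and AKAP3. The median log2 fold change of LBF over RBF on log2(depth + 1) was 1.88 in the members and 1.64 in all DMRs. Without RBF replicate 3, no member changed its call, and the medians were 1.53 and 1.41. With each gene counted once, by its DMR with the most CpGs, the median of the 30 genes was 1.57.

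The direction depended on how the libraries were scaled. For profiles along chromosomes the paper describes a scaling of depth to the average number of reads of the group, and whether the depths of the DMRs were scaled in that way is not stated. When all libraries were brought to one median depth across the 14163 DMRs, the median of all DMRs shifted by -1.41, and the members became 29 higher and 16 lower, with 8 called in each direction. That setting takes the middle of regions picked for differing as its zero, so neither scaling fixes where no difference lies. Among the 8 members still called higher were those of GRM5 and BDKRB2, the DMR of ADCY2 in its first intron, the DMR of PDE11A with the larger difference, and the 3 intronic DMRs of PDE2A. The 6 lower members kept their calls, and ADCY5 and the exonic DMR of AKAP11 joined them.

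**Figure D1:**
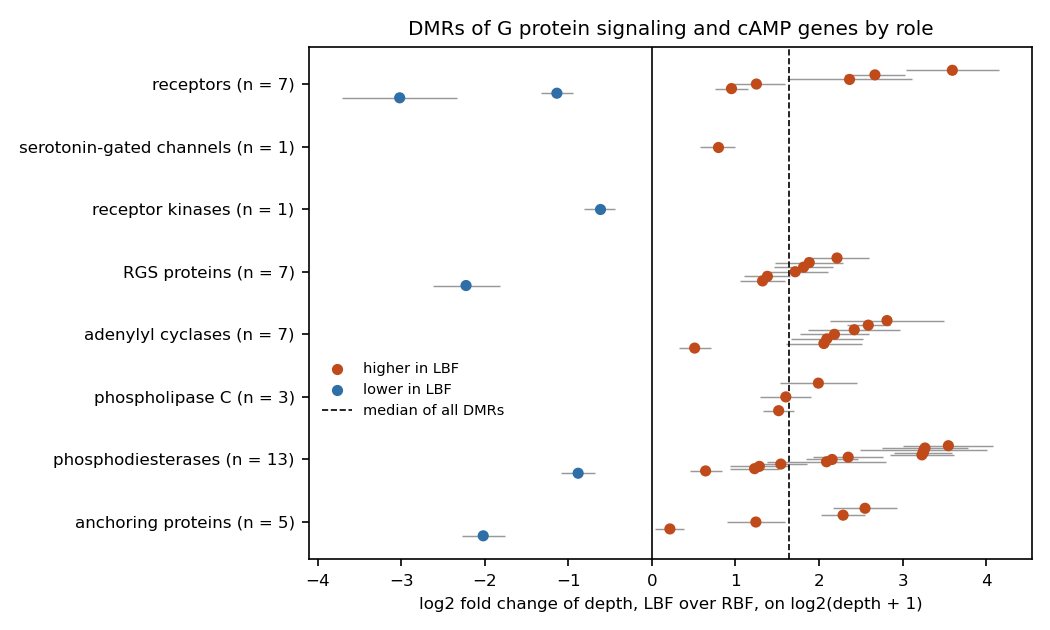
Log2 fold change of depth, LBF over RBF, on log2(depth + 1), for 44 of the 45 DMRs, grouped by the role of the gene. Points are DMRs, bars are standard errors from limma, and the dashed line is the median of all 14163 DMRs, 1.64. The 7 adenylyl cyclase DMRs and the 3 phospholipase C DMRs all lie above 0 on the authors' scaling, as do 84.8% of all DMRs. Of the DMRs shown the receptors reach furthest on both sides, with GRM5 at 3.60 and GPR158 at -3.02.

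Receptors held 8 DMRs, 1 in each of 8 genes. Of these, 6 were higher and 2 lower in LBF, all called (75.0% and 25.0%, against 84.5% and 15.1% over all DMRs). Their values are given below for 7 of the 8. GRM5, a metabotropic glutamate receptor that signals through Gq, had a DMR of 98 bp in its first intron (chromosome 9, 24618554 to 24618651) that read 33.3, 19.1 and 32.8 in LBF, against 3.05, 2.26 and 0 in RBF. That was a log2 fold change of 3.60 (standard error, SE, 0.56, limma adjusted p = 0.0021). The nearest other DMR lay 1018659 bp away, where the median distance over all DMRs was 25745 bp, so this DMR stood alone. Its fold change depends on the pseudocount, since the RBF libraries read close to 0, and with a pseudocount of 5 it was 2.30 and still called.

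BDKRB2, the bradykinin receptor that is present without inflammation, held 1 of the 2 promoter DMRs of the members by annotations with a human symbol. This DMR of 226 bp and 12 CpGs (chromosome 7, 124704130 to 124704355) lay in the intermediate zone of a promoter of intermediate CpG content, in the first intron of the same gene, and in the shore of a CpG island, the band that flanks an island. It read 24.3, 28.0 and 23.0 in LBF, against 3.81, 4.95 and 1.40 in RBF. The lowest LBF library was thus 18.1 above the highest RBF library. S1PR3, a receptor of sphingosine 1-phosphate, read 16.2, 16.2 and 19.5 in LBF, against 4.57, 0 and 6.97 in RBF, over 5 CpGs of its first intron (chromosome 14, 885135 to 885338). Its log2 fold change of 2.37 (SE 0.75, limma adjusted p = 0.019) was among the least certain of the members. It was 1.45 without RBF replicate 2, which read 0, and its adjusted p was 0.056 without LBF replicate 3.

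The DMRs in receptors of catecholamines and adenosine had smaller log2 fold changes than those of GRM5, BDKRB2 and S1PR3. ADRA1B, an alpha-adrenergic receptor that couples to Gq, read 92.6, 90.0 and 96.8 in LBF, against 56.1, 23.1 and 43.9 in RBF, over 5 CpGs within 29 bp of its first intron (chromosome 16, 69069492 to 69069520). LBF libraries lay close together there and RBF libraries spread more widely, with a log2 fold change of 1.25 (SE 0.34, limma adjusted p = 0.010). ADORA3, an adenosine receptor that inhibits adenylyl cyclase, read 25.1, 22.3 and 24.5 in LBF, against 10.3, 12.3 and 13.2 in RBF, over 9 CpGs of an internal intron (chromosome 4, 119035959 to 119036145). The same region lay in the promoter and an exon of a second pig transcript that bears the symbol ADORA3 and no human symbol. Its log2 fold change was 0.95 (SE 0.19, limma adjusted p = 0.0038). With equal library medians the fold changes were -0.22 for ADRA1B and -0.46 for ADORA3, neither called. Among the DMRs analysed here none was in a beta-adrenergic receptor.

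The other 2 receptors were lower in LBF. GPR158, a receptor of the glutamate receptor class that holds RGS7 at the membrane, read 0, 0 and 4.75 in LBF, against 12.4, 12.9 and 15.3 in RBF, over 7 CpGs of its last intron (chromosome 10, 55180690 to 55180899). Only 1 LBF library had any read here, and the log2 fold change was -3.02 (SE 0.69, limma adjusted p = 0.0055), the value of rank 125 from the bottom of all DMRs. With a pseudocount of 5 it was -1.57, still called. FZD10, a receptor of Wnt proteins, read 15.0, 16.6 and 14.2 in LBF, against 37.1, 36.3 and 31.0 in RBF, over 8 CpGs of its first exon (chromosome 14, 26522740 to 26522874), in the shore of a CpG island. Both breeds were tight at this exon, and the log2 fold change was -1.14 (SE 0.19, limma adjusted p = 0.0024). HTR3A, which the gene names bring in with the serotonin receptors, forms an ion channel and not a G protein-coupled receptor. It read 106, 98.5 and 97.7 in LBF, against 61.1, 67.0 and 47.3 in RBF, with a log2 fold change of 0.79 (SE 0.21, limma adjusted p = 0.0093), and turned to -0.69, uncalled, with equal library medians.

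**Figure D2:**
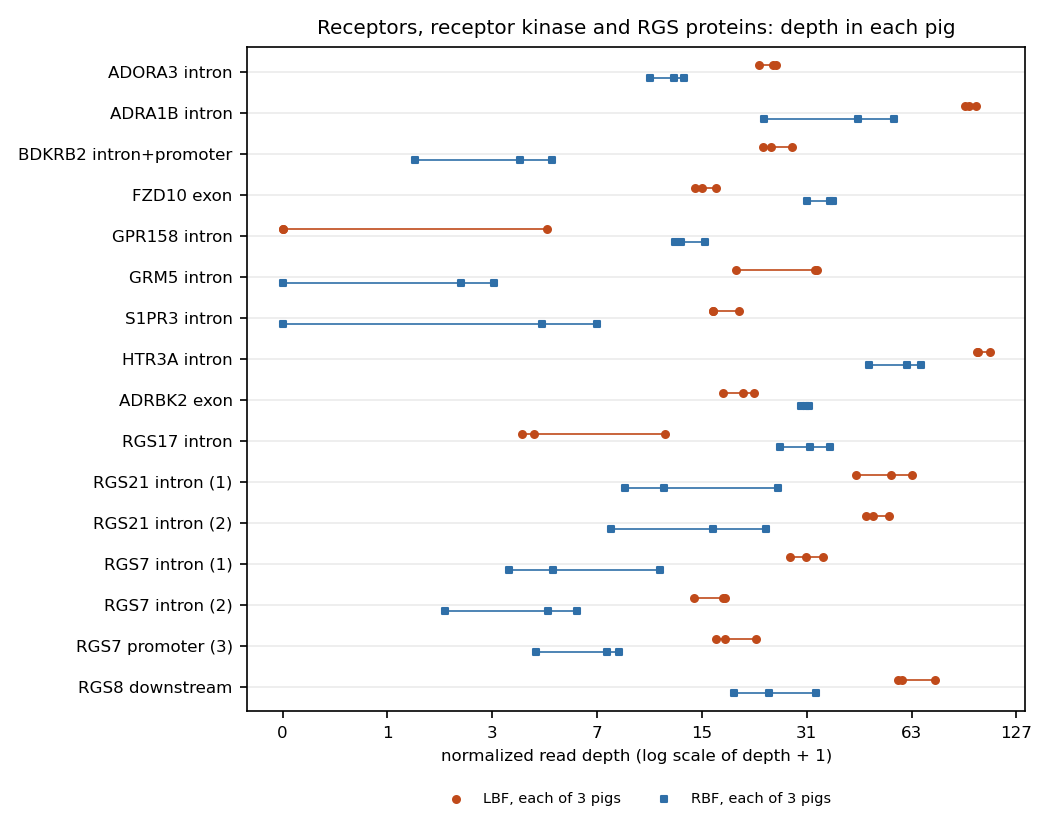
Normalized read depth in each pig, on a log scale of depth + 1, at 16 DMRs of receptors, the serotonin-gated channel HTR3A, the receptor kinase ADRBK2 and RGS proteins. Circles are the 3 LBF libraries, squares the 3 RBF libraries, and lines span each breed; numbers in brackets tell apart DMRs of one gene in order along the chromosome. GRM5 separates the breeds widely (19.1 to 33.3 in LBF against 0 to 3.05 in RBF), and FZD10, GPR158, ADRBK2 and RGS17 are the rows where LBF lies left of RBF.

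Genes that switch receptors and G proteins off held 8 DMRs. ADRBK2, a kinase that phosphorylates active receptors so that they are switched off, read 21.6, 20.0 and 17.4 in LBF, against 30.8, 31.4 and 29.8 in RBF, over 8 CpGs of an internal exon (chromosome 14, 46259218 to 46259323). The 3 RBF libraries were within 2 units of one another, and the log2 fold change of -0.62 (SE 0.19, limma adjusted p = 0.014) was the smallest of the 6 lower members. Its adjusted p was 0.060 without LBF replicate 3. Of 7 DMRs in 4 RGS genes, 6 were higher and 1 lower in LBF, all called (85.7% and 14.3%, against 84.5% and 15.1% over all DMRs).

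The lower one was in RGS17, an RGS protein of the inhibitory G protein classes. It read 4.26, 3.87 and 11.6 in LBF, against 25.9, 31.6 and 36.3 in RBF, over 8 CpGs of an internal intron (chromosome 1, 15672188 to 15672381), with a log2 fold change of -2.22 (SE 0.40, limma adjusted p = 0.0029). RGS7, the partner of GPR158, acts on the inhibitory class and held 3 DMRs, all higher in LBF, over 29403 bp of chromosome 10. Its promoter DMR, in the distal zone of a promoter of intermediate CpG content (14338655 to 14338782, 7 CpGs), read 17.6, 21.9 and 16.6 in LBF, against 4.35, 8.26 and 7.56 in RBF. That was a log2 fold change of 1.38 (SE 0.27, limma adjusted p = 0.0037), the smallest of the 3. The 2 intronic DMRs were 1941 bp apart, with log2 fold changes of 2.22 and 1.82, and the second spanned 523 bp and 15 CpGs. GPR158 and RGS7 are partners as proteins, and their DMRs went in opposite directions. With equal library medians no RGS DMR was called higher, the promoter of RGS7 stood at 0.01, RGS8 at -0.14, and RGS17 stayed lower.

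RGS21, a short RGS protein, held 2 DMRs in its last intron, 593 bp apart (chromosome 10, 2942266 to 2943022). They read 54.8, 43.2 and 63.3 and 48.6, 54.3 and 46.4 in LBF, against 25.4, 11.5 and 8.61 and 23.4, 16.2 and 7.74 in RBF. At both, RBF replicate 1 was the highest of its breed and RBF replicate 3 the lowest, and the log2 fold changes were 1.88 and 1.72. RGS8, which acts on inhibitory and Gq classes, had a DMR within 2 kb downstream of the gene (chromosome 9, 136257048 to 136257220). It read 59.2, 57.5 and 73.9 in LBF, against 33.1, 18.7 and 24.0 in RBF, and the log2 fold change was 1.32 (SE 0.26, limma adjusted p = 0.0037).

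Adenylyl cyclases, the source of cAMP, held 7 DMRs in 4 genes, all intronic, all higher in LBF and all called. Their median log2 fold change was 2.18, against 1.59 over all intronic DMRs, of which 83.5% were called higher. ADCY1, a cyclase stimulated by calcium and calmodulin, read 96.6, 78.5 and 67.8 in LBF, against 15.8, 23.4 and 2.74 in RBF, over 8 CpGs in a shore (chromosome 18, 54909716 to 54909937). The RBF libraries varied widely relative to their depth, though on linear depth the SD was 10.5 in RBF and 14.6 in LBF. The log2 fold change was 2.81 (SE 0.68, limma adjusted p = 0.0068). ADCY2, a cyclase stimulated by G protein beta and gamma subunits, held 2 DMRs 106213 bp apart. The one in its first intron had 20 CpGs in 244 bp (chromosome 16, 80518510 to 80518753) and read 105, 104 and 93.3 in LBF, against 22.3, 13.1 and 13.6 in RBF. Its lowest LBF library was 71.0 above the highest RBF library, the widest such distance among the members, and its adjusted p of 0.0012 (log2 fold change 2.59, standard error 0.26, limma) was the lowest of the members. The other, over 5 CpGs of an internal intron (80412156 to 80412296), read 28.2, 34.6 and 41.5 in LBF, against 5.48, 13.4 and 2.07 in RBF, with a log2 fold change of 2.42 (SE 0.55, limma adjusted p = 0.0054).

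ADCY3, the cyclase of olfactory cilia whose loss is linked to obesity in people and mice, held 3 DMRs over 26278 bp of chromosome 3. Their log2 fold changes were 2.06, 2.18 and 2.09 (SE 0.45, 0.41 and 0.43, limma adjusted p = 0.0049, 0.0031 and 0.0041). The first (121135116 to 121135225) read 17.9, 16.2 and 15.7 in LBF, against 4.57, 5.62 and 1.03 in RBF. The second, 1478 bp further on in the same first intron and in a shore (121136704 to 121136967), read 52.2, 62.6 and 56.8 in LBF, against 9.36, 23.0 and 7.38 in RBF. The third, in an internal intron (121161288 to 121161393), read 27.0, 25.8 and 22.1 in LBF, against 6.70, 8.43 and 2.07 in RBF. At all 3, RBF replicate 2 was the highest and RBF replicate 3 the lowest of the breed. The closeness of the 3 fold changes depended on the setting, since they were 1.53, 1.88 and 1.60 without RBF replicate 3 and 1.34, 1.86 and 1.53 with a pseudocount of 5.

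ADCY5, a cyclase that calcium inhibits and that is best known from heart and brain, was the least changed of the called members. Its intronic DMR (chromosome 13, 146623364 to 146623483) read 125, 115 and 130 in LBF, against 95.5, 86.4 and 76.7 in RBF, so both breeds had deep coverage. The log2 fold change was 0.51 (SE 0.19, limma adjusted p = 0.034). The call ended without LBF replicate 1, 2 or 3 and without RBF replicate 2, with adjusted p from 0.054 to 0.105, and with equal library medians the DMR was called lower at -0.97 (adjusted p = 0.019, limma). Of the other cyclase DMRs, only the one in the first intron of ADCY2 stayed called with equal library medians, at 1.14.

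Phospholipase C genes held 3 DMRs, all in internal introns, higher in LBF and called, where 83.5% of all intronic DMRs were called higher. PLCB1 and PLCB4, which Gq activates, had their DMRs at 19821106 to 19821233 and 20729716 to 20729764 of chromosome 17. PLCB1 read 29.1, 34.2 and 36.2 in LBF, against 16.6, 4.10 and 5.97 in RBF, and PLCB4 read 52.1, 45.3 and 56.0 in LBF, against 25.1, 12.8 and 12.9 in RBF. In both genes RBF replicate 1 stood above the other 2 RBF libraries, and the log2 fold changes were 1.99 and 1.60. PLCG2, which tyrosine kinases activate in place of G proteins, read 18.0, 20.6 and 16.8 in LBF, against 6.09, 5.47 and 5.81 in RBF, in a shore on chromosome 6 (7035391 to 7035547). The RBF libraries lay closer together here than at any other member on the linear scale (SD 0.31), and the log2 fold change was 1.52 (SE 0.19, limma adjusted p = 0.0015). None of the 3 was called with equal library medians.

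Phosphodiesterases held 13 DMRs in 7 genes, the most of any role. Of these, 12 were higher and 1 lower in LBF, all called (92.3% and 7.69%, against 84.5% and 15.1% over all DMRs). Their median log2 fold change was 2.16, against 1.64 over all DMRs. With equal library medians 4 of the 13, in PDE2A and PDE11A, were called higher and 1 lower. PDE2A, which cGMP stimulates to break down cAMP, held 4 DMRs with 53 CpGs over 22159 bp of chromosome 9, more DMRs than any other member gene. In the first (7723855 to 7724045), in its first intron, LBF read 17.0, 13.997 and 20.8, against 0, 2.68 and 0 in RBF. The next 2, in internal introns and 395 bp apart, were the longest of the members, with 562 and 544 bp and 18 and 21 CpGs. They read 14.6, 16.0 and 16.0 (7730973 to 7731534) and 17.1, 13.8 and 12.99 (7731930 to 7732473) in LBF, against 0.93, 1.82 and 0 and 0.87, 1.34 and 0 in RBF. RBF coverage was thus close to nil over 39 CpGs where LBF coverage was modest and even. The log2 fold changes of the 3 were 3.55, 3.23 and 3.25 (SE 0.54, 0.39 and 0.35, limma adjusted p = 0.0020, 0.0014 and 0.0013), and 1.94, 1.81 and 1.78 with a pseudocount of 5.

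The fourth DMR of PDE2A lay in an internal exon 13456 bp further on (7745930 to 7746013). It read 12.3, 14.9 and 12.03 in LBF, against 3.92, 6.25 and 0 in RBF, with a log2 fold change of 2.09 (SE 0.71, limma adjusted p = 0.025). This call was less secure, since its adjusted p was 0.058 to 0.069 without LBF replicate 1, 2 or 3, and its log2 fold change was 1.23 without RBF replicate 3, which read 0. RBF replicate 3 read 0 in all 4 DMRs of the gene.

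PDE11A, which breaks down both cAMP and cGMP, held 2 DMRs in its last intron, 1862 bp apart (chromosome 15, 92873076 to 92875351). The first read 24.2, 17.9 and 20.7 in LBF, against 2.83, 2.01 and 0 in RBF, and the second 17.9, 18.0 and 21.9 in LBF, against 8.07, 7.19 and 3.49 in RBF. LBF was alike at both and RBF was not, so that the log2 fold changes were 3.27 (SE 0.51, limma adjusted p = 0.0021) and 1.54 (SE 0.31, limma adjusted p = 0.0038). PDE1C, which calcium and calmodulin activate, held 2 DMRs in its first intron, 50673 bp apart on chromosome 18. They read 59.9, 58.5 and 44.2 and 60.7, 68.5 and 76.3 in LBF, against 5.52, 18.5 and 8.71 and 16.5, 20.0 and 9.21 in RBF, with log2 fold changes of 2.35 and 2.16. RBF replicate 2 was the highest of its breed at both.

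PDE8B, a cAMP-specific enzyme, held a DMR in an internal exon (chromosome 2, 87841852 to 87841931) and one in an internal intron 5149 bp further on. The exon read 63.8, 53.9 and 64.1 in LBF, against 27.7, 35.7 and 14.2 in RBF, with a log2 fold change of 1.29 (SE 0.35, limma adjusted p = 0.010). The log2 fold change of the intron was 1.23, and both turned to -0.17 and -0.18, uncalled, with equal library medians. PDE6A, the enzyme of rod photoreceptors, read 42.4, 47.1 and 47.5 in LBF, against 27.0, 26.9 and 32.9 in RBF. Its log2 fold change was 0.64 (SE 0.19, limma adjusted p = 0.014), with an adjusted p of 0.053 without LBF replicate 2 and 0.052 without LBF replicate 3, and it stood at -0.82, uncalled, with equal library medians. PDE6D, which binds the lipid tail of other proteins and breaks down no nucleotide, read 52.0, 48.3 and 47.5 in LBF, against 0.57, 5.47 and 13.4 in RBF, over 8 CpGs of its last intron (chromosome 15, 146144707 to 146144887). LBF libraries were tight and RBF libraries were far apart at this DMR, with a log2 fold change of 3.25 (SE 0.76, limma adjusted p = 0.0058).

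The lower phosphodiesterase DMR was in PDE10A, a dual enzyme known best from the striatum of the brain. It read 36.8, 42.0 and 47.8 in LBF, against 71.8, 75.2 and 88.3 in RBF, over 7 CpGs of an internal intron in a shore (chromosome 1, 4732466 to 4732568). The closest libraries of the breeds were 24.0 apart, and the log2 fold change was -0.88 (SE 0.20, limma adjusted p = 0.0057).

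**Figure D3:**
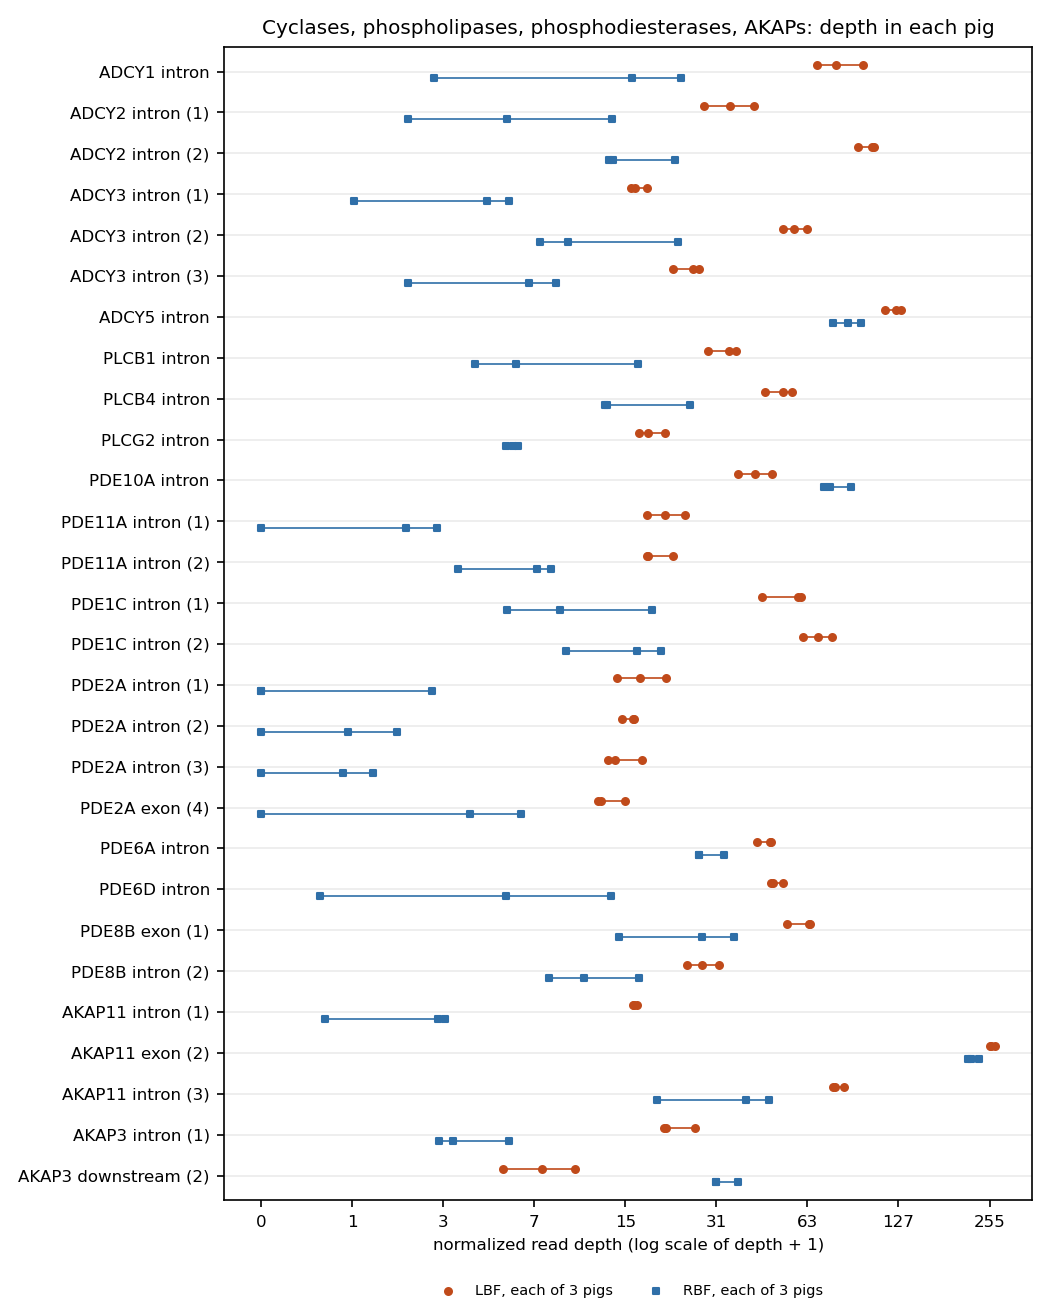
Normalized read depth in each pig, on a log scale of depth + 1, at the 28 DMRs of adenylyl cyclases, phospholipases C, phosphodiesterases and anchoring proteins (AKAPs). Circles are the 3 LBF libraries, squares the 3 RBF libraries, and lines span each breed. LBF lies right of RBF except at PDE10A and the downstream DMR of AKAP3. On this log scale RBF is spread more widely than LBF in most rows, and the 4 DMRs of PDE2A have RBF libraries at 0.

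Anchoring proteins held 5 DMRs in 2 genes. AKAP3, an anchoring protein of the sperm tail, was the only member gene with DMRs of both directions. In its last intron (chromosome 5, 68017741 to 68017970) LBF read 20.6, 20.8 and 26.1, against 3.30, 2.86 and 5.59 in RBF. Only 3412 bp further on, within 2 kb downstream of the gene (68021383 to 68021518), LBF read 5.29, 9.88 and 7.51, against 36.8, 31.0 and 31.0 in RBF. The order of the breeds was thus opposite in 2 regions of 6 CpGs each. The log2 fold changes were 2.29 (SE 0.27, limma adjusted p = 0.0014) and -2.02 (SE 0.26, limma adjusted p = 0.0015). With equal library medians they were 0.97, uncalled, and -3.41, called. The downstream DMR also lay downstream of DYRK4, a protein kinase gene, and cannot be given to one of the genes alone.

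AKAP11 held 3 DMRs over 25700 bp of chromosome 11, all higher in LBF. The exonic one (25424491 to 25424570) lay in a CpG island, the only member that did, and had by far the deepest coverage of the members. It read 267, 258 and 256 in LBF, against 221, 235 and 216 in RBF. The breeds did not overlap, yet the log2 fold change of 0.22 (SE 0.17, limma adjusted p = 0.26) was the smallest of the 12016 DMRs higher in LBF, and its p the highest of all 14163. On linear depth the difference of 36.3 was called (adjusted p = 0.00066, limma), and with equal library medians the DMR was called lower, at -1.28 (adjusted p = 0.0070, limma). The intronic DMR before it (25412957 to 25413071) read 16.4, 16.0 and 16.1 in LBF, against 3.05, 0.62 and 2.84 in RBF, with a log2 fold change of 2.55 (SE 0.38, limma adjusted p = 0.0019). The DMR in its first intron had only 27 bp and 5 CpGs and read 78.0, 83.5 and 76.6 in LBF, against 39.0, 46.9 and 19.4 in RBF, with a log2 fold change of 1.24, or -0.22 with equal library medians. AKAP11 thus had the widest range of differences among member genes whose DMRs share a direction, 2.33 on the log2 scale.

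Several DMRs in a gene were no more frequent than elsewhere. Of the 30 genes 10 held 2 or more DMRs (33.3%), against 881 of all 2686 genes (32.8%). In 9 of these 10 every DMR was higher in LBF on the authors' scaling, where 84.8% of all DMRs were higher. With equal library medians the DMRs of PDE8B stood at -0.18 and -0.17, and those of AKAP11 ran from -1.28 to 1.36. On the authors' scaling, DMRs of one gene spanned 0.06 to 0.19 on the log2 scale in ADCY2, ADCY3, PDE1C, PDE8B and RGS21. These spans depended on the libraries and the pseudocount, and reached 0.62 in ADCY2, 0.42 in PDE1C, 0.37 in PDE8B and 0.38 in RGS21 with 1 library left out (RBF replicate 3 for ADCY2 and PDE1C, RBF replicate 2 for PDE8B, LBF replicate 2 for RGS21), and 0.52 in ADCY3 with a pseudocount of 5. The spans were wider in RGS7 (0.83), PDE2A (1.46), PDE11A (1.72) and AKAP11 (2.33). DMRs of one gene come from the same pigs and are not independent observations.

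**Figure D4:**
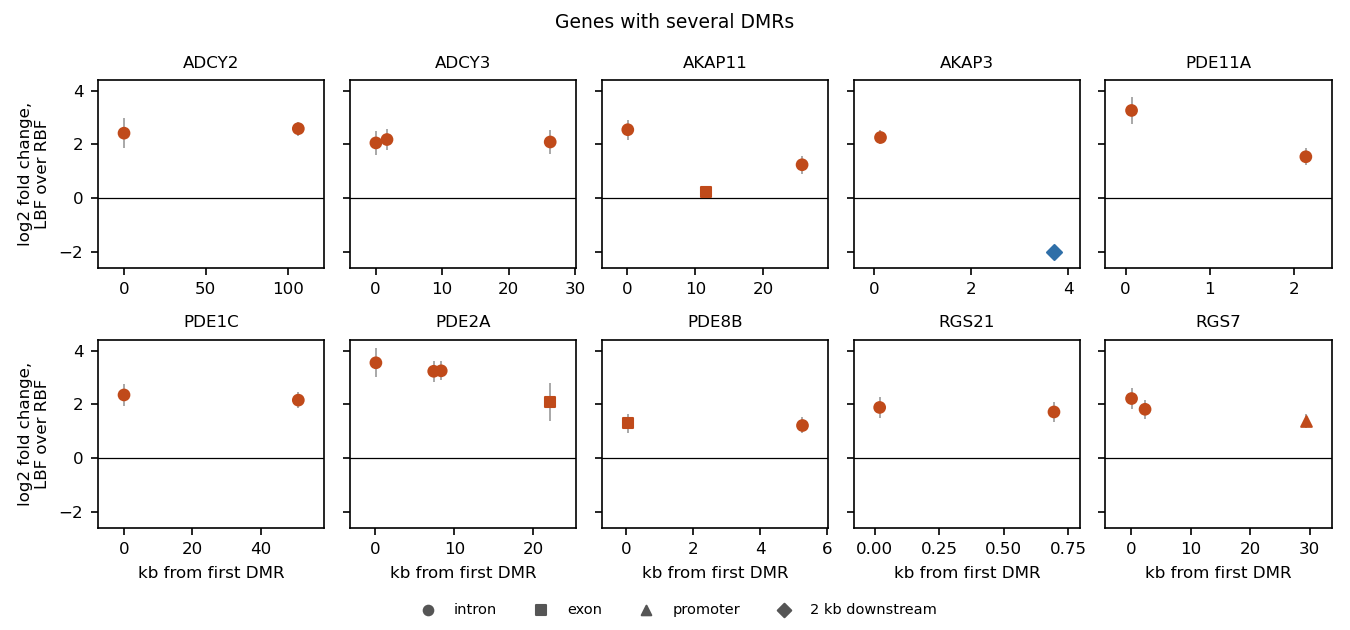
Log2 fold change of depth, LBF over RBF, on log2(depth + 1), against the distance in kb from the start of the first DMR of the gene, for the 10 genes with 2 or more DMRs. Circles are introns, squares exons, triangles promoters and diamonds regions within 2 kb downstream; bars are standard errors from limma. AKAP3 is the one gene with a DMR on each side of 0, at 2.29 and -2.02, and PDE2A has 4 DMRs between 2.09 and 3.55.

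The places of the DMRs were mostly those of all gene DMRs. Introns held 37 of the 45 (82.2%), against 85.3% of the 4864 DMRs in gene elements. Exons held 5 (11.1% against 5.37%), promoters 2 (4.44% against 8.26%), and regions within 2 kb downstream 2 (4.44% against 6.60%). Elements of the members were counted from annotations with a matching human symbol, and those of all DMRs from every annotation. The DMR of ADORA3, also in a promoter and an exon of a transcript without a human symbol, thus counts in introns only. Of the 5 exonic DMRs 3 were higher in LBF and 2 lower (60.0% higher, against 72.4% of all exonic DMRs). Of the 37 intronic DMRs 34 were higher and 3 lower (91.9% higher, against 84.0% of all intronic DMRs). Shores of CpG islands held 6 members (13.3%), against 4.65% of all DMRs and 6.78% of those in gene elements. These were in BDKRB2, FZD10, ADCY1, ADCY3, PLCG2 and PDE10A, of which FZD10 and PDE10A were lower in LBF. No member lay on the X chromosome, which held 9.16% of all DMRs and 8.33% of those in gene elements. With so few members these shares are given as a description.

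**Figure D5:**
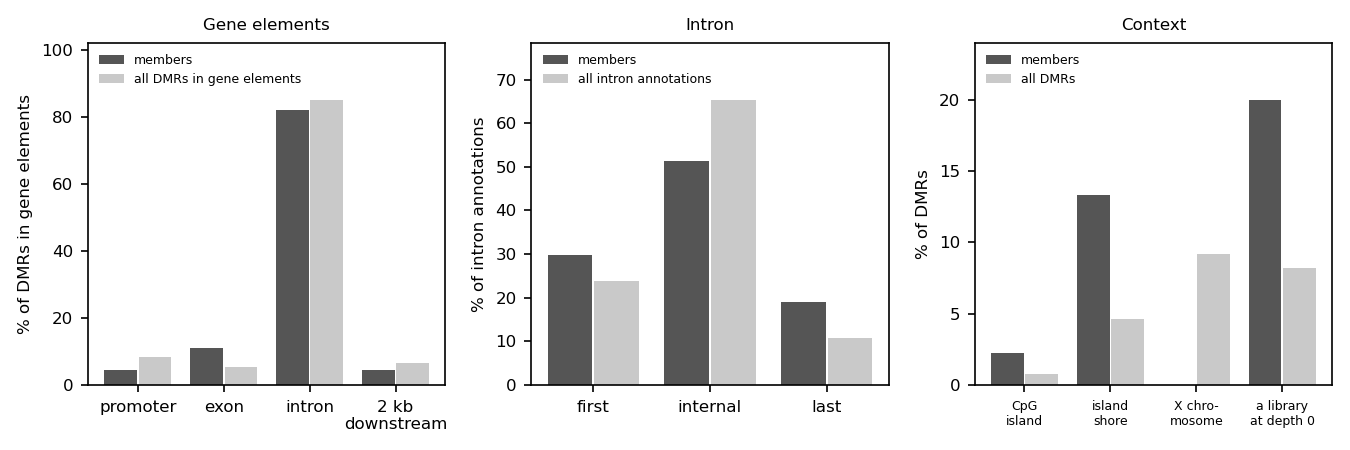
Share of DMRs, in percent, for the members (dark bars) and for all DMRs (light bars). Left, gene elements, over the 45 members and the 4864 DMRs in gene elements, where a DMR can count in several elements; middle, place of the intron, over 37 and 4329 intron annotations; right, CpG island, island shore, X chromosome and DMRs with a library at depth 0, over the 45 members and 14163 DMRs. Members were in shores in 13.3% against 4.65% and on the X chromosome in 0 against 9.16%. Over the 4864 DMRs in gene elements, where all members lie, these shares were 6.78% and 8.33%. Elements of the members go by annotations with a matching human symbol, and those of all DMRs by every annotation.

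A depth of 0 in some library was found in 9 of the 45 members (20.0%), against 8.18% of all DMRs and 6.89% of those in gene elements. These members included GRM5, S1PR3, GPR158, the first DMR of PDE11A and the 4 of PDE2A. For 11 members the log2 fold change was over 1.5 times that with a pseudocount of 5, which for some of them was 1.42 (S1PR3), 1.99 (the first DMR of PDE11A), 1.58 (the first DMR of AKAP11), and 1.18 to 1.94 (the 4 of PDE2A). The members were shallower than the table as a whole, with a median depth of 28.4 in LBF and 11.8 in RBF, against 35.1 and 12.8 over all DMRs. On the log2 scale the spread between pigs was narrower in LBF. The median SD of log2(depth + 1) was 0.16 in LBF and 0.65 in RBF, and over all DMRs 0.17 and 0.46. This SD was larger in RBF in 39 of the 45 members and in 11463 of all 14163 DMRs. On linear depth the order differed between members. The linear SD at GRM5 was 8.09 in LBF and 1.58 in RBF, and at ADRA1B 3.45 and 16.7. The part of the lower RBF depth in this spread was not tested. DMRs of many CpGs were all higher in LBF: of the 8 members with 10 or more CpGs (among them BDKRB2, 1 each of RGS7, ADCY2, PDE11A and PDE1C, and 2 of PDE2A) 8 were higher, and over all DMRs of that size 96.2%. The nearest other DMR had the same direction for 36 of the 45 members (80.0%, against 76.7% of all DMRs). For all 6 lower members the nearest DMR was higher in LBF, where 22.0% of all lower DMRs had a lower neighbour.

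Genes of the same pathway outside these families gave a more mixed picture. A list of 163 such genes, of receptors, receptor kinases and genes around cAMP and its targets, had 27 genes with a total of 51 DMRs. Of these, 35 were higher (68.6%) and 16 lower (31.4%) in LBF, all called, against 84.5% and 15.1% over all DMRs. Their median log2 fold change was 1.30, against 1.64. PRKX, GRK5 and GABBR2 held 7, 6 and 5 of the 51 DMRs, and PRKX 3 of the 16 lower ones, so the shares rest in part on few genes. On the authors' scaling, every DMR was higher in 15 of the 27 genes and every DMR lower in 5, and 7 held both directions. With equal library medians 3 of the 51 DMRs were called higher, in GRK5, PRKX and RAPGEF2, and 16 lower. Among the 7 genes of both directions, only PRKX then had a DMR called higher.

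Among them GRK5, a receptor kinase like ADRBK2, held 6 DMRs in its first intron, all higher in LBF, with log2 fold changes from 0.93 to 2.49. The one with the most CpGs, 31 in 765 bp (chromosome 14, 140675631 to 140676395), read 22.1, 25.8 and 21.2 in LBF, against 8.50, 6.45 and 5.12 in RBF. With equal library medians only 1 of the 6, at 140673677 to 140673874, was called (1.04), and 2 of them turned to -0.54 and -0.19, uncalled. PRKX, a kinase on the X chromosome that is related to the catalytic subunit of PKA, held 7 DMRs that changed direction along the gene. The 4 with the lowest coordinates were higher in LBF, up to 3.69, and the 3 that followed, up to its promoter, were lower. The promoter DMR (X chromosome, 144165443 to 144165525) read 66.0, 57.0 and 38.0 in LBF, against 113, 105 and 109 in RBF, with a log2 fold change of -1.04 (SE 0.25, limma adjusted p = 0.0067).

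RAPGEF2, an exchange factor that activates Rap proteins, held 2 DMRs higher in LBF (3.23 and 0.89), of which the second turned to -0.54, uncalled, with equal library medians. RAPGEF6, another Rap exchange factor, held 1 of each direction (1.98 and -1.31). CREB3L2, a membrane-bound transcription factor, also held 1 of each, with its promoter lower at -1.40. CREB5, a transcription factor that binds cAMP response elements, held 2 of each direction. Receptors lower in LBF at their only DMR were CASR, the calcium sensor (-1.86), CCKBR, the gastrin receptor, in its promoter (-1.32), FFAR4, a receptor of long-chain fatty acids (-1.21), KISS1R (-1.11) and SMO, the transducer of hedgehog signals (-2.83). SMO read 3.05, 2.58 and 22.1 in LBF, against 40.2, 54.4 and 51.6 in RBF, so LBF replicate 3 stood apart from the other 2. FFAR4 read 14.6, 17.0 and 10.9 in LBF, against 27.4, 39.7 and 34.9 in RBF, in its first intron (chromosome 14, 114748417 to 114748675; adjusted p = 0.0041, limma). G protein-coupled receptors higher in LBF at their only DMR were CRHR1, CYSLTR2, GABBR1, LGR6, NTSR2, PROKR1, RXFP1, SCTR and VIPR1. Their log2 fold changes ran from 0.96 (RXFP1) to 3.43 (PROKR1), and none was called with equal library medians. PROKR1, a prokineticin receptor, read 56.7, 58.9 and 46.3 in LBF, against 1.52, 23.7 and 1.11 in RBF, where RBF replicate 2 stood apart. The promoter DMR of PLIN1, also on the list, was higher at 1.81, or 0.40, uncalled, with equal library medians.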

How the data were processed

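Backfat of 3 LBF and 3 RBF pigs was sequenced after immunoprecipitation of methylated DNA. Following the paper's methods, the authors aligned paired reads with SOAP2 to the pig genome (Sscrofa10.2 in the submitters' processing notes), counted reads that mapped to several places as one, left out shallow CpGs, and merged CpGs with a breed difference into DMRs of at least 5 CpGs. The signal is the read coverage that the authors deposited for each library, a mean over the CpGs of a DMR after a scaling that is not stated for this table. Multiplied by its number of CpGs, the depth came out, within 0.01, as whole steps of a fixed size per library in 100% of DMRs, and this step was 1.17 to 1.29 in LBF and 1.29 to 1.56 in RBF, so a DMR of few CpGs at low depth rests on few reads. The lengths, numbers of CpGs and gene annotations are other numbers and labels that the authors deposited. Columns with the authors' own P and FDR of each DMR were not used.

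The table of 15883 annotations was reduced to 14163 distinct DMRs. Each was tested with limma 3.58.1 (R 4.3.3) on log2(depth + 1), breed as the only term, Benjamini-Hochberg adjusted over all DMRs, threshold 0.05. Fold changes on this scale understate the difference at low depth. The script was tested on simulated data. Other steps used python 3.11.15, pandas 2.3.3, numpy 2.4.6 and matplotlib 3.10.9. Whether a DMR is higher or lower goes by the mean depth of each breed. The replicates are separate animals.

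The members and lists were chosen with earlier results of these data known. Values were written out for every promoter or exon DMR, the 8 largest log2 fold changes in each direction at a mean depth of at least 10, every gene with 5 or more DMRs, all DMRs of catecholamine, adenosine, prostaglandin and lysophospholipid receptors, cyclases and PKA subunits, and genes with both directions. This rule named 25 of the 45 DMRs, and the rest, like the pathway genes outside the list of members, were described after their values were seen. The alternatives were equal library medians, a pseudocount of 0.5 or 5, a minimum mean depth of 10, linear depth, a block by replicate number, leaving out each replicate, at least 10 CpGs, autosomes only, genes of another role left out, each gene once and, chosen after seeing the data, pig symbols added. The values of 1 receptor DMR are not reported here, though it is counted in the totals. No sequence was printed, as none was at hand for this build.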

Additional observations from a re-analysis of the deposited data

How the results depend on the processing

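Pseudocounts of 0.5 and 5 and autosomes only changed no call of a member, a mean depth of at least 10 kept 39 members with their calls, and linear depth added AKAP11's exonic DMR. Equal library medians ended 21 calls in the same direction and reversed 10 DMRs, to -0.46 (ADORA3), -0.22 (ADRA1B), -0.69 (HTR3A), -0.14 (RGS8), -0.97 (ADCY5), -0.82 (PDE6A), -0.17 and -0.18 (PDE8B), and -1.28 and -0.22 (AKAP11). Counts of members called higher fell to 8 with equal library medians, 8 with at least 10 CpGs (of 8 members, none lower, 0) and 24 with each gene once (of 30), against 38. Pathway genes outside the members had 3 called higher with equal library medians, and 8 higher and 1 lower with at least 10 CpGs (of 9). The members' median log2 fold change was 1.40 with a pseudocount of 5, 0.51 with equal library medians, 2.63 with at least 10 CpGs, 1.57 with each gene once, and 1.58 with pig symbols added, a choice made after seeing the data. Linear depth has no median on the log2 scale. Leaving out 1 replicate gave medians from 1.53 (without RBF replicate 3) to 1.99 (without RBF replicate 1), 34 to 38 members called higher and 5 or 6 lower, and only S1PR3, ADRBK2, ADCY5, PDE6A and the exonic DMR of PDE2A lost a call.

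Same-numbered pigs deviated together little (correlations of 0.06, -0.01 and 0.06 across DMRs), and other pairs across the breeds ran from -0.08 to 0.03. These values cannot tell whether the numbers pair the pigs, since pigs can be paired by design without deviating together. The paper names paired t-tests in several figure legends and does not state what was paired. With the replicate block 37 members were called higher and 5 lower, since the calls of ADCY5 (adjusted p = 0.096, limma) and ADRBK2 (adjusted p = 0.051, limma) ended. Depth limits the values where RBF libraries read near 0.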

Other observations

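Adhesion receptors stood in the table under newer human symbols and so fell outside the names that chose the members, while the pig symbols beside them were the older ones. Pig symbols of the GPR and BAI families brought in 13 DMRs of 7 genes, 10 higher and 3 lower in LBF, all called by limma. These were 76.9% and 23.1%, against 84.5% called higher and 15.1% lower over all DMRs. The median log2 fold change of the 13 was 1.41. The lower DMRs of FFAR4 and KISS1R are also among the pathway genes described above. With equal library medians 2 of the 13 were called higher and 3 lower.

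ADGRF5 (pig symbol GPR116), an adhesion receptor of lung and vessels that also acts in fat, held 4 DMRs on chromosome 7, of which 3 were higher in LBF (1.43, 1.30 and 1.57, or -0.02, -0.13 and 0.10, uncalled, with equal library medians). The remaining one (48319118 to 48319314, 8 CpGs) read 7.64, 7.74 and 14.4 in LBF, against 67.8, 68.3 and 100 in RBF, and the log2 fold change was -2.90 (SE 0.31, limma adjusted p = 0.0013). It lay in an internal intron, next to a DMR (48315599 to 48315737) that read 68.7, 62.8 and 57.5 in LBF, against 25.3, 27.5 and 16.6 in RBF.

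ADGRG2 (GPR64), an adhesion receptor known from the epididymis, held 4 DMRs on the X chromosome, all higher in LBF (0.79 to 1.41), and all turned to between -0.66 and -0.03, uncalled, with equal library medians. Its promoter DMR (16672408 to 16672589) read 55.2, 74.1 and 73.8 in LBF, against 23.4, 18.5 and 34.4 in RBF. ADGRB3 (BAI3), a brain adhesion receptor, read 10.6, 12.4 and 13.3 in LBF, against 0.91, 2.81 and 0.77 in RBF. WLS (GPR177), which carries Wnt proteins to the cell surface and is not known as a G protein-coupled receptor, read 19.7, 14.04 and 15.2 in LBF, against 3.05, 2.95 and 0.43 in RBF.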
